A study of Mus musculus with 2 samples.

Results

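Fibroblasts of the preputial gland (PG) were taken from a droplet-based single-cell library of that gland. A barcode was taken as a cell when it carried 500 genes or more, 1000 or more unique molecular identifiers (UMIs, each standing for 1 captured RNA molecule) and no more than 10% mitochondrial UMIs. A cell was a member when it held UMIs of at least 3 of *Col1a1*, *Col1a2*, *Col3a1*, *Dcn*, *Lum* and *Pdgfra*, with a sum of at least 20 per 10000 UMIs. It also had to hold fewer than 3 of the contractile genes *Acta2*, *Tagln*, *Myh11*, *Rgs5* and *Myl9*, and no UMI of the leukocyte gene *Ptprc*. By this rule, 638 of the 4699 PG cells were fibroblasts, which is 13.6% (exact 95% binomial interval, 12.6 to 14.6), out of 13598 cells in the series.

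The series holds 1 library of whole preputial glands and 1 library of 6 mm back skin biopsies. Each was made from the pooled tissue of 3 male C57BL/6 mice aged 52 weeks, with no treatment named in the labels. The PG library held 26288071 UMIs and the skin library 37675226. PG fibroblasts had a median of 1406 UMIs and 758 genes, and skin fibroblasts, taken by the same rule, 1882 UMIs and 947.5 genes. With 1 pooled library per tissue there was no replicate, so no test between tissues was possible, and library and tissue cannot be told apart. All intervals are exact at the 95% level. They describe counting error, and the spread between mice was not measured.

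The preputial gland is a paired sebaceous gland of rodents that opens beside the penis and secretes lipids and scent signals. Its lobules of sebocytes are wrapped in connective tissue, in which fibroblasts lay down collagen, proteoglycans and basement membrane. Fibroblasts also keep a record of body position in their homeobox genes, supply epithelium with growth factors and Wnt modulators, and recruit leukocytes through chemokines.

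The marker rule left few cells near its limit. The summed level of the 6 marker genes had a median of 237 per 10000 UMIs and ran from 22.7 to 946, with 5% of members below 55.9 and 5% above 537. The 3 members nearest the limit stood at 22.7, 23.6 and 23.7, and the 3 cells nearest to it from outside at 19.4, 18.4 and 18.3. Only 5 cells met every condition but the sum, 13 were left out by a *Ptprc* UMI alone and 2 by 3 or more contractile genes. A further 61 barcodes met the rule but had more than 10% mitochondrial UMIs. *Dcn*, the small proteoglycan decorin that binds collagen fibrils, had UMIs in 99.8% of members and was the marker with most UMIs. *Col1a2* and *Col1a1*, which encode the chains of type I collagen, were in 90.0% and 81.7%, and *Col3a1*, which encodes type III collagen, was in 82.3%. The proteoglycan *Lum* was in 57.8% and the growth factor receptor *Pdgfra* in 36.4%. These are the values that chose the members.

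A subset of members went against the label. Of the 638 cells, 471 had no UMI of the 6 epithelial genes *Krt5*, *Krt14*, *Epcam*, *Cdh1*, *Dsp* and *Perp*, but 80 (12.5%) had UMIs of 3 or more. These 80 cells were deep, with a median of 3864.5 UMIs against 1406 over all members, and supplied 28.1% of the fibroblast UMIs. A score for resemblance to simulated doublets removed 64 fibroblasts when 177 PG cells with the highest scores were left out, and 49 of the 64 were among these 80. Skin fibroblasts numbered 1100, of which 139 (12.6%) had 3 or more epithelial genes and supplied 23.4% of the UMIs. Results are therefore given for all members, with counts of lists and selected genes also given without such cells, which leaves 558 PG and 961 skin fibroblasts. No cell barcode was shared by the libraries.

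**Figure D1:**
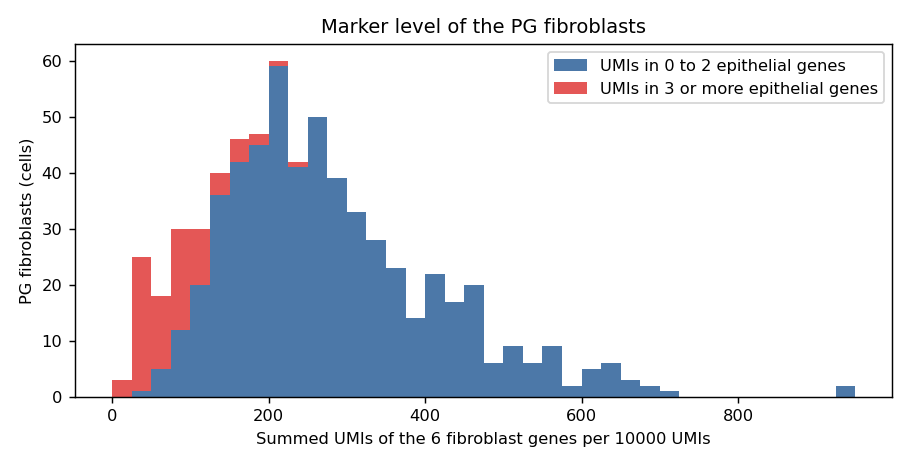
Number of PG fibroblasts by the summed UMIs of the 6 fibroblast genes per 10000 UMIs, in bins of 25, with cells holding 3 or more epithelial genes in red. The 638 cells run from 22.7 to 946 around a median of 237, and all 80 red cells lie below that median.

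The label was checked against 18 fibroblast genes that the rule did not use. All 18 had UMIs in PG fibroblasts, with a summed level of 13300 CPM (counts of a gene per 1000000 UMIs of the group) against 248 CPM in PG epithelial cells. The most abundant was *Sparc*, a collagen-binding matrix protein, at 3470 CPM in fibroblasts and 208 in epithelial cells. The 9 pericyte markers were led by *Ndufa4l2* at 177 CPM and included *Des* at 77.3 CPM. Low levels of the rule's own contractile genes, such as *Rgs5*, are partly set by the rule. *Adipoq*, *Plin1*, *Cidec* and *Adrb3* of fat cells were all at 0, and the 5 mesothelial markers summed to 2.64 CPM. Several of these lists stood higher in PG than in skin fibroblasts. Immune markers, led by *Cd74*, summed to 221 against 90.3 CPM with 7 of 9 higher, endothelial markers, led by *Plvap*, to 143 against 58.7 with 4 of 6 higher, and pericyte markers to 456 against 270 with 3 of 8 higher. In PG epithelial cells the immune, endothelial and pericyte lists summed to 127, 36.8 and 455 CPM. Skeletal muscle markers summed to 127 against 709 CPM in PG and skin fibroblasts, with 7 of 8 lower. These counts use the 2-fold limit set out below, by which 12.4% of all genes were higher and 11.4% lower. The part of other cells in the chemokine, antigen presentation, basement membrane, *Sparcl1* and *Des* results was not tested. The 5 red cell markers summed to 104 CPM in PG fibroblasts and to 4640 CPM in skin fibroblasts, with *Hbb-bs* at 46.6 and 2500.

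PG fibroblasts were compared with the skin fibroblasts to describe how the stroma of the gland differed from that of the dermis. A level is the sum of a gene's UMIs within a group, scaled to CPM, and a gene was counted as higher or lower at a ratio of at least 2-fold with at least 10 UMIs in both groups together. UMIs were counted at the 3′ end of transcripts, so a level does not grow with gene length. Of 11788 genes measured, 1456 were higher in PG fibroblasts, which is 12.4%, and 1348 were lower, which is 11.4%. Without the cells with epithelial genes, 11.5% were higher and 10.8% lower of 10809 genes. The median ratio over all genes was -0.01 on the log2 scale.

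The most abundant transcripts outside the rule were mostly shared by both sets of fibroblasts. *Gsn*, gelsolin, which severs actin filaments, was at 8970 CPM in PG and 8840 in skin fibroblasts, and *Clec3b*, tetranectin, at 3040 and 2820. The ferritin chain *Fth1* was at 8010 against 11100 CPM, the calcium-binding *S100a6* at 5580 against 10100, and *Tpt1* and *Eef1a1*, of protein synthesis and growth, at 6830 against 4270 and 4550 against 2850. *Mt1*, a metallothionein, was at 2910 against 1600 CPM. *Gm42418*, which overlaps ribosomal RNA, was at 21400 CPM in PG fibroblasts and at 255000 in the free RNA of that library, taken from barcodes with 2 to 50 UMIs. *Dbi*, an acyl-CoA binding protein, and *Apoe*, which carries lipid, were also abundant at 3020 and 3440 CPM, but PG epithelial cells held more of both, at 9940 and 7490 CPM.

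Several positional transcription factors had few or no UMIs in 1 of the sets of fibroblasts. *Isl1*, a LIM homeobox gene of hindlimb and genital mesenchyme (GRCm38 chr13:116298281-116309689, minus strand), was at 68.5 CPM in PG fibroblasts (54.2 to 85.5) and at 1.23 in skin fibroblasts, where 3 UMIs were counted. It had UMIs in 11.4% of PG fibroblasts, and it was at 0.156 CPM in PG epithelial cells and 1.11 CPM in the free RNA of the suspension. *Tbx4*, a T-box factor of the hindlimb field, was at 14.9 CPM against 0.411, and *Pitx1*, which acts in the same field, was at 12.3 CPM with no UMI in skin fibroblasts, at least 9.99-fold higher.

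Genes of the trunk dermis lay the other way. *En1*, the engrailed homeobox gene that marks the main fibroblast lineage of back skin (chr1:120602418-120607992), was at 57.9 CPM in skin fibroblasts (48.7 to 68.3) and at 0.879 in PG fibroblasts, where 1 UMI was found among 1137951. Among cells with 1000 genes and 2000 UMIs *En1* had no UMI in PG fibroblasts and was at 50.3 CPM in skin, at least 7.26-fold lower. *Zic1*, a zinc finger gene of dorsal mesoderm, was at 62.8 CPM in skin fibroblasts and had no UMI in PG fibroblasts, at least 23.8-fold lower, or at least 6.45-fold among those deeper cells. *Lef1*, a transcription factor of the Wnt pathway, had no UMI in PG fibroblasts and was at 15.6 CPM in skin. Of the 31 positional and mesenchymal transcription factors measured, 9 (29.0%, against 12.4% of all genes) were higher and 7 (22.6%, against 11.4%) lower in PG fibroblasts, with a median of 0.35 on the log2 scale. With epithelial-gene cells left out, 8 were higher and 6 lower of 28. The lineage factor *Prrx1* was lower, at 249 against 536 CPM, while *Twist1* and *Twist2* differed by less than 2-fold. The orphan receptor *Nr2f2* was 4.64-fold higher at 57.1 CPM.

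The Hox genes were split by their place in the clusters. Of 23 Hox genes measured, 9 (39.1%) were higher in PG fibroblasts and 11 (47.8%) lower, against 12.4% and 11.4% of all genes. The 9 higher genes all had a number of 9 or above, and the 11 lower genes a number of 8 or below. Without the cells with epithelial genes 8 were higher and 12 lower of 20 measured. *Hoxc10* (chr15:102966796-102971893) was at 46.6 CPM (34.9 to 60.9) against 3.28 in skin fibroblasts (1.42 to 6.47), which is 14.2-fold. Among cells with 1000 genes and 2000 UMIs it was at 20.8 against 2.83 CPM, from 9 and 4 UMIs. *Hoxc11* was at 17.6 CPM and *Hoxd13* at 10.5 CPM, both with no UMI in skin fibroblasts, at least 14.3-fold and 8.56-fold higher. *Hoxc9*, the most abundant Hox gene of PG fibroblasts, was at 55.4 against 27.1 CPM. This log2 ratio of 1.03 lay at the 2-fold limit and was 0.16 among cells with 1000 genes and 2000 UMIs. *Hoxc10*, *Hoxc11*, *Hoxc9* and *Hoxd13* were at 0.234 CPM or less in PG epithelial cells. *Hoxa9*, *Hoxd9*, *Hoxd10* and *Hoxd11* were higher as well, at 31.6, 14.9, 14.9 and 17.6 CPM, but PG epithelial cells held 110, 53.9, 37.1 and 26.1 CPM of them. Without the cells with epithelial genes these 4 genes stood at 12.2, 7.34, 12.2 and 11.0 CPM in PG fibroblasts, and *Hoxa9* and *Hoxd9* were still 2.93 and 1.19 higher on the log2 scale than in skin.

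Hox genes with lower numbers were lower in PG fibroblasts. *Hoxc8* was at 14.9 CPM (8.70 to 23.9) against 68.2 in skin fibroblasts (58.2 to 79.3), and *Hoxc6* at 17.6 against 46.8 CPM. Among cells with 1000 genes and 2000 UMIs *Hoxc8* was at 2.31 CPM, from 1 UMI, against 63.7. *Hoxb7* was at 0.879 CPM, from 1 UMI, against 19.3 CPM, and *Hoxa5* likewise at 0.879 against 9.03 CPM. The intervals of *Hoxc8* and *Hoxc6* did not overlap between the groups. At these levels most cells held no UMI: *Hoxc10* was seen in 8.15% of PG fibroblasts and *Isl1* in 11.4%, and 6 cells held both.

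**Figure D2:**
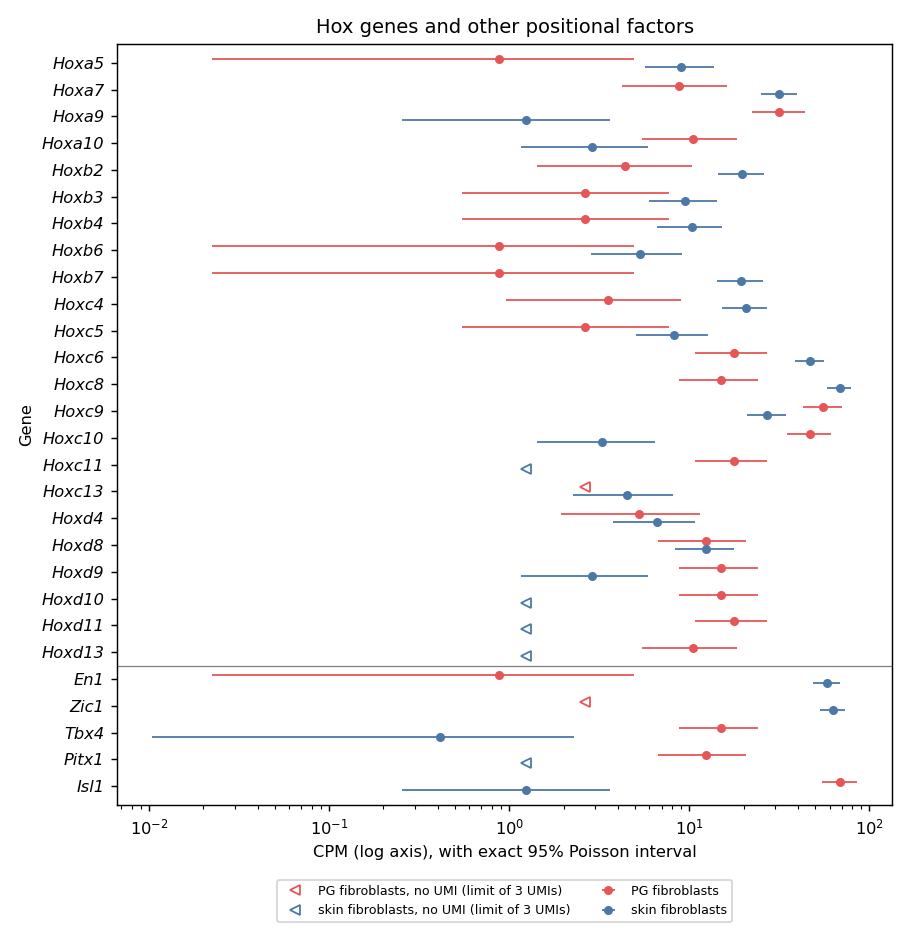
Level in CPM (log axis) of Hox genes with at least 10 UMIs and of 5 other positional factors in PG (red) and skin (blue) fibroblasts, with exact 95% Poisson intervals and open triangles at the limit of 3 UMIs where none was counted. *Hoxc10* stands at 46.6 CPM in PG and 3.28 in skin fibroblasts, while *En1* stands at 0.879 and 57.9.

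Matrix genes outside the rule differed in both directions. The type I collagen genes of the rule were lower in PG fibroblasts, with *Col1a1* at 1860 against 5690 CPM and *Col1a2* at 2120 against 7050. *Col3a1* was within 2-fold, at 2460 against 4410, and so was *Dcn*, at 14600 against 9010 CPM. These rule genes chose the cells of both groups, so their levels are a description only. Of 19 other collagen genes, 7 (36.8%, against 12.4% of all genes) were higher and 2 (10.5%, against 11.4%) lower, with a median of 0.48 on the log2 scale. The counts were the same without epithelial-gene cells. The higher ones included *Col4a1* and *Col4a2*, the chains of type IV collagen in basement membranes, at 530 against 223 CPM and 303 against 138 CPM. *Col6a2*, of the beaded microfilaments around cells, was at 810 against 280 CPM (2.90-fold) and *Col15a1*, of the zone next to basement membranes, at 227 against 92.8. *Hspg2*, which encodes perlecan of basement membranes, was 2.16-fold higher at 328 CPM. *Col14a1*, a collagen that binds to fibrils, was at 156 against 482 CPM.

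Counts in the matrix lists that follow are to be read against 12.4% higher and 11.4% lower over all genes. Among 10 proteoglycan genes, 2 (20%) were higher and 4 (40%) lower. *Bgn*, the relative of decorin called biglycan, was 3.25-fold higher at 1290 CPM (1220 to 1360) against 396. *Aspn*, the asporin of the same family, was 7.73-fold lower at 49.2 CPM (37.2 to 63.9) against 380, and *Ogn*, osteoglycin, was at 555 against 1440. Members of this family thus lay on both sides, beyond counting error. *Prg4*, lubricin, had 6 UMIs in PG fibroblasts and stood at 36.1 CPM in skin fibroblasts.

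Elastic fibre genes were mostly within 2-fold, with 3 of 16 (18.8%) higher and none lower. *Fbln1*, fibulin-1 of elastic fibres and basement membranes, was at 438 against 144 CPM, and *Ltbp2*, a fibrillin-binding protein, at 67.7 against 5.75. Elastin itself, *Eln*, was at 265 CPM and 197. Of 15 genes for collagen processing, 3 were higher and 3 lower, among them the crosslinking enzyme *Lox* at 322 against 126 CPM and *Pcolce2*, an enhancer of procollagen cleavage, at 396 against 842. Without the cells with epithelial genes none of these 15 genes was lower.

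Of 12 adhesive glycoprotein genes 2 (16.7%) were higher and 1 (8.33%) lower, and of 13 metalloproteinases and inhibitors 3 (23.1%) were higher and 1 (7.69%) lower, with 9 within 2-fold in each list. *Sparcl1*, a matrix glycoprotein related to *Sparc*, was at 830 CPM (777 to 884) against 81.3, which is 10.2-fold, while *Sparc* was at 3470 against 4170. *Timp1*, an inhibitor of metalloproteinases, was 7.17-fold higher at 336 CPM, but 91.1% of its UMIs lay in 5% of the cells. *Mgp*, an inhibitor of calcification, was at 2380 against 870 CPM and was also uneven, with 64.8% of its UMIs in 5% of the cells. *Mmp3*, stromelysin, was at 696 against 323 CPM. *Spon1*, the secreted matrix protein spondin-1, was 11.1-fold higher at 214 CPM against 19.3.

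**Figure D3:**
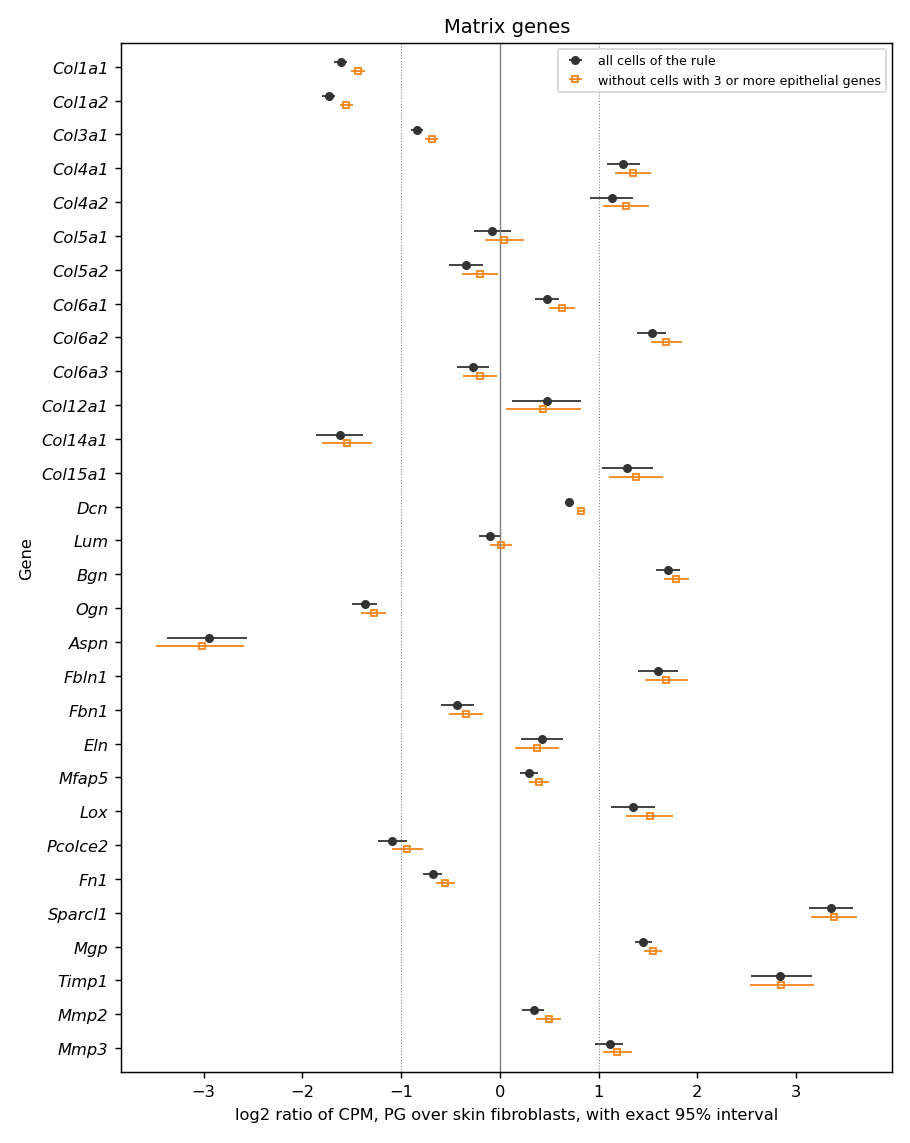
log2 ratio of CPM in PG over skin fibroblasts for 30 matrix genes, with exact 95% intervals, for all cells of the rule (filled) and without cells with 3 or more epithelial genes (open), with dotted lines at 2-fold. *Sparcl1* lies at 3.35 and *Aspn* at -2.95, and the open and filled values of each gene lie close together.

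Complement genes were abundant in PG fibroblasts. Of 13 measured, 6 (46.2%, against 12.4% of all genes) were higher and none lower, with a median of 0.99 on the log2 scale, and their summed level was 9660 against 4590 CPM. With epithelial-gene cells left out, 7 of 13 were higher. *C3*, the central protein of the cascade (chr17:57203970-57228136, minus strand), was at 3540 CPM (3430 to 3650) against 1170 and had UMIs in 87.8% of the cells. Its log2 ratio of 1.6 was 1.02 among cells with 1000 genes and 2000 UMIs, and 1.7 without epithelial-gene cells. After every cell was thinned to 1000 UMIs it was in 80.7% of PG and 51.8% of skin fibroblasts, and in 1.44% of PG epithelial cells. *Serping1*, the inhibitor of C1, was at 2900 against 1330 CPM and in 94.7% of PG fibroblasts, with a log2 ratio of 1.13 that was 0.67 among cells with 1000 genes and 2000 UMIs. *Cfb*, factor B of the alternative pathway, was 3.21-fold higher at 379 CPM, and *C2*, its counterpart in the classical pathway, was 2.24-fold higher. *C4b* and *C1s1* differed by less than 2-fold.

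A few acute phase genes are described here that were chosen after their values were seen, because they were high, so they give no count for a group. *Saa3*, an extrahepatic serum amyloid A (chr7:46711998-46715700, minus strand), was at 623 CPM (578 to 671) against 1.23 in skin fibroblasts, where 3 UMIs were found, a ratio of 8.98 on the log2 scale (7.43 to 11.26). It was at 13.4 CPM in PG epithelial cells, 73.5 CPM in free RNA and had no UMI in PG contractile cells. Only 7.99% of PG fibroblasts held it, and 94.9% of its UMIs lay in 5% of the cells. *Saa2*, of the same family and close in sequence, had 51.0 CPM with no UMI in skin fibroblasts. Haptoglobin, *Hp*, which binds free haemoglobin, was at 94.0 against 3.69 CPM in 5.64% of cells. *Serpina3n*, a secreted protease inhibitor, was spread more widely, in 25.2% of cells at 306 against 77.6 CPM. Ceruloplasmin, *Cp*, which carries copper, was at 354 CPM against 59.9, and *Steap4*, a metalloreductase, at 237 against 52.5, and *Cp* was in 36.5% of cells.

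*Lcn2*, which encodes the iron-siderophore binding lipocalin-2, had the highest ratio of the genes that met the limits on level and detection. It stood at 1170 CPM in PG fibroblasts and at 0.411 in skin fibroblasts, from 1 UMI. PG epithelial cells held 2890 CPM and free RNA 919 CPM of it, and contractile cells 1180. Without the cells with epithelial genes it was at 643 CPM in PG fibroblasts. The part of free RNA and of epithelial cells in its level was not tested.

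Promoter sequence is shown for 2 genes of the acute phase and complement group and for 2 of the chemokine and cytokine group described next, as the 150 bases before the transcription start in RefSeq (GRCm38.p6). Capitals mark matches to TTGCNNAA, a C/EBP-type motif, and to an NF-kB-type motif of GGG, any 2 bases and TTTCC, each searched on both strands. These 4 genes were chosen after their values were seen. No match of one motif overlapped the other here. A match is a description of the letters and not a measured binding site.
Saa3, chr7:46715677-46715826, minus strand: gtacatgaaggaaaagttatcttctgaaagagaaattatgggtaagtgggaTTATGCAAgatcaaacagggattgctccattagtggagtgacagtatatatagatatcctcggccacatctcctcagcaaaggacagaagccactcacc
C3, chr17:57228137-57228286, minus strand: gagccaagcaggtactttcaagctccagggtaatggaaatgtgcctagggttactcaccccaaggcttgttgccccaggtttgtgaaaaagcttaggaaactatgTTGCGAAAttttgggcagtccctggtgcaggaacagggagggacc
Cxcl1, chr5:90891095-90891244, plus strand: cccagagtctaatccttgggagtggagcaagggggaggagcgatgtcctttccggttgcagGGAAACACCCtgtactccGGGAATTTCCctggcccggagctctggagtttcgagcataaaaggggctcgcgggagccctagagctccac
Il6, chr5:30012964-30013113, plus strand: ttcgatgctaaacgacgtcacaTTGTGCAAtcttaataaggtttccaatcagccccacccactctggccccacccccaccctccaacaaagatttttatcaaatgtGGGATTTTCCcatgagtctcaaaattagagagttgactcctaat
*Saa3* and *C3* each held 1 C/EBP-type match, whose first base lay 99 and 45 bases before the start. *Cxcl1* held 2 NF-kB-type matches, at 89 and 71 bases, and *Il6* held 1 of each kind, at 128 bases for the C/EBP type and 44 for the NF-kB type. Of 32851 promoters of the same length, 5.46% held the C/EBP-type motif and 0.925% the NF-kB-type motif.

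Of 21 chemokine and cytokine genes measured, 7 (33.3%, against 12.4% of all genes) were higher in PG fibroblasts and 3 (14.3%, against 11.4%) lower, with a summed level of 7210 against 3520 CPM. With epithelial-gene cells left out, 7 were higher and 2 lower of 20. *Cxcl14*, a chemokine made by many epithelia and fibroblasts, was at 1340 against 381 CPM, although PG epithelial cells also held 563 CPM. *Ccl11*, eotaxin, which attracts eosinophils, was at 785 CPM (734 to 838) against 258 and in 53.3% of the cells, and was at 2.65 CPM in epithelial cells. *Ccl19*, a ligand of the lymphocyte homing receptor CCR7, was 6.28-fold higher at 243 CPM, but near-identical copies of this gene could share its reads. *Cxcl12*, which retains leukocytes and progenitors in tissue, was at 584 against 285 CPM. The B cell chemokine *Cxcl13* was lower, at 84.4 against 214 CPM, and so was *Cxcl9*, an interferon-induced ligand for T cells, at 5.27 against 42.7.

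The monocyte chemokines *Ccl2* and *Ccl7* were higher over all members, at 1310 against 527 CPM and 1050 against 281. This direction was not kept among deeper cells. Among barcodes with at least 1000 genes and 2000 UMIs, which left 118 PG fibroblasts, the log2 ratios were -1.43 for *Ccl2* and -0.51 for *Ccl7*, in place of 1.31 and 1.90. Both genes were held by few cells, with 74.3% and 70.5% of their UMIs in 5% of the members. Subcluster 2, described below, held 64.1% of the *Ccl2* UMIs and 73.4% of the *Ccl7* UMIs, and its cells had a median of 1270 UMIs. Without epithelial-gene cells, which are over-represented among deeper cells, the log2 ratio of *Ccl2* was 1.57. The part of this change of cells in the reversal was not tested. *Cxcl1*, a neutrophil chemokine, was within 2-fold at 1140 against 687 CPM, a log2 ratio of 0.73, and stood at -2.18 among the deeper cells. *Il6* was at 78.2 against 51.3.

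Immediate early genes, which respond to tissue dissociation, were measured beside the chemokines. Of 25 immediate early and dissociation genes, 2 (8%, against 12.4% of all genes) were higher and 1 (4%, against 11.4%) lower in PG fibroblasts, with a median of 0.24 on the log2 scale. When cells with epithelial genes were left out, 6 were higher and none lower, with a median of 0.52. *Fos* was at 729 CPM in PG fibroblasts and 737 in skin fibroblasts, and *Jun* at 718 and 1030. *Klf2* and *Myc* were the genes higher over all members, at 424 against 182 CPM and 100 against 39.8, and *Klf4* was lower. The part of dissociation in the chemokine levels was not tested.

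Genes of signals between stroma and epithelium were taken by pathway. Of 15 Wnt ligands, R-spondins and antagonists measured, 5 (33.3%) were higher and 3 (20%) lower, or 4 and 2 without epithelial-gene cells, against 12.4% and 11.4% of all genes. *Sfrp2*, a secreted Wnt modulator, was 3.04-fold higher at 867 CPM (814 to 923) against 285 and was in 51.1% of PG fibroblasts. Its log2 ratio of 1.6 was 0.48 among cells with 1000 genes and 2000 UMIs, and 1.75 without epithelial-gene cells. *Rspo1*, an R-spondin that strengthens Wnt signals, was at 43.9 against 20.9 CPM. *Wif1*, a Wnt inhibitor, had no UMI in PG fibroblasts and was at 30.8 CPM in skin, at least 11.7-fold lower. *Sfrp5* was at 35.2 against 0.821 CPM, but its 40 UMIs lay in 0.313% of the cells, which is 2 cells.

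Of 21 BMP and TGF-beta genes, 2 (9.52%) were higher and 3 (14.3%) lower, shares near those of all genes. *Gdf10*, a ligand of this superfamily, was at 190 against 86.2 CPM and *Tgfb1* at 55.4 against 14.0. *Chrdl1*, which blocks BMP4, was 7.05-fold lower at 21.1 against 149 CPM. Of 7 genes that report Hedgehog signals, 1 (14.3%) was higher, near the 12.4% of all genes, and 3 (42.9%, against 11.4%) lower. *Ptch1*, the receptor that the pathway itself induces, was at 3.52 CPM from 4 UMIs in PG fibroblasts and at 37.4 in skin fibroblasts, and *Gli1*, its target transcription factor, was at 5.27 against 13.5. The counts in PG fibroblasts were below 10 for *Ptch1*, *Gli1* and *Hhip*, which sets how far these ratios can be read.

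Of 16 growth factor genes, 3 (18.8%, against 12.4% of all genes) were higher, 2 (12.5%, against 11.4%) lower and 11 within 2-fold. *Igf1*, insulin-like growth factor 1, was the most abundant. It stood at 540 CPM (498 to 584) in PG fibroblasts against 234 in skin fibroblasts and at 1.64 in PG epithelial cells. Among cells with 1000 genes and 2000 UMIs its log2 ratio was 0.05 in place of 1.21, and without epithelial-gene cells it was 1.29. *Fgf10*, a mesenchymal factor that drives budding of glands, was 4.55-fold higher at 44.8 against 9.85 CPM and was held by 5.96% of the cells, with a log2 ratio of 2.19 that was 0.97 among the deeper cells. *Fgf7*, keratinocyte growth factor, was at 72.1 and 73.5 CPM. Of 6 binding proteins of insulin-like growth factors, 3 (50%, against 12.4% of all genes) were higher and 1 (16.7%, against 11.4%) lower. The other 2 were within 2-fold, and the median log2 ratio was 0.08. *Igfbp4* and *Igfbp7* lay at the 2-fold limit, 2.01-fold and 2.05-fold higher. *Igfbp3* was 3.82-fold lower at 98.4 against 376 CPM, and 7.94-fold lower among the deeper cells. *Igfbp5* was at 1280 against 2530 CPM. *Igfbp2* was 6.55-fold higher over all members, but it was at 717 CPM in PG epithelial cells, and without the cells with epithelial genes the ratio was 2.10.

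**Figure D4:**
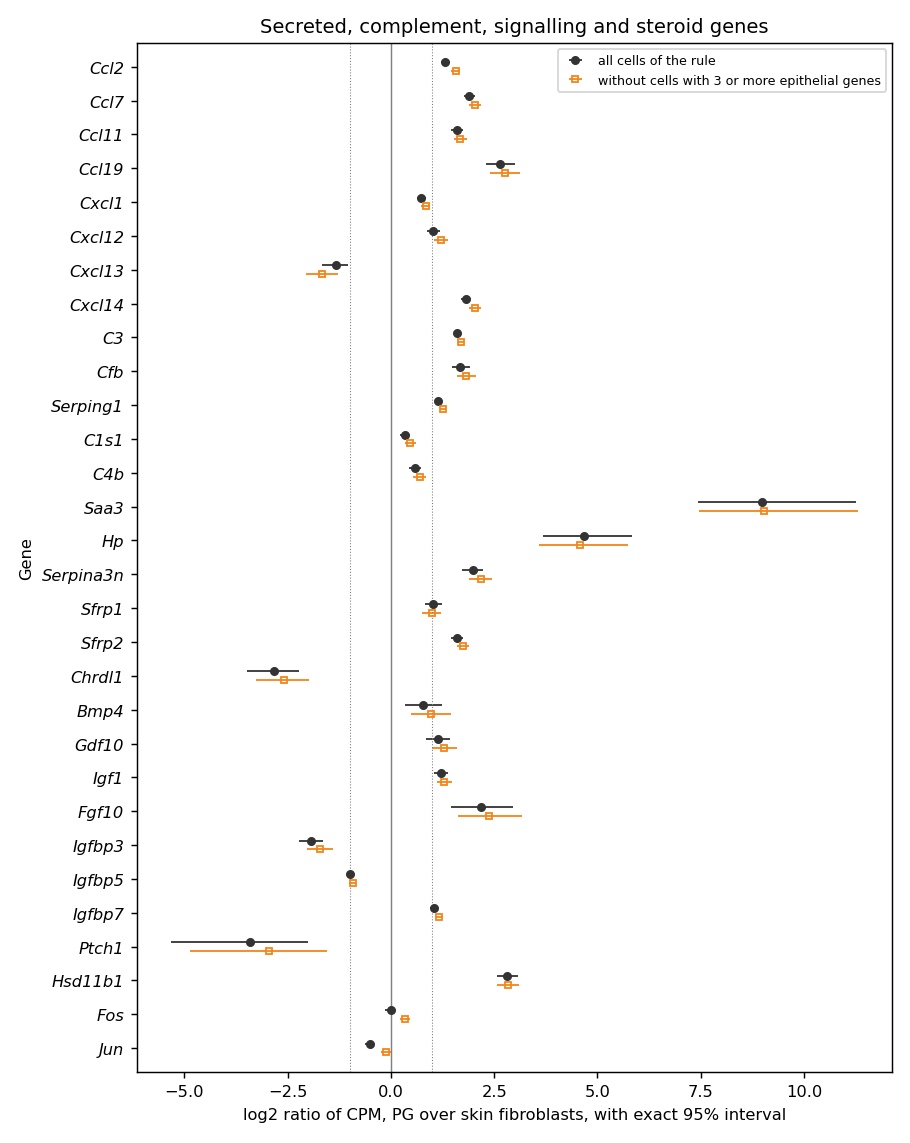
log2 ratio of CPM in PG over skin fibroblasts for 30 genes, among them chemokine, complement, acute phase, growth factor, Hedgehog, steroid and immediate early genes, with exact 95% intervals, for all cells of the rule (filled) and without cells with 3 or more epithelial genes (open). *Saa3* lies at 8.98 with a wide interval from 3 skin UMIs, *Ptch1* lies at -3.41, and *Fos* lies near 0.

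Of the 11 steroid receptor and enzyme genes measured, 2 (18.2%, against 12.4% of all genes) were higher and 2 (18.2%, against 11.4%) lower, of which 1 was lower without epithelial-gene cells. *Hsd11b1*, which regenerates active glucocorticoid inside the cell, was 7.05-fold higher in PG fibroblasts, at 489 CPM (450 to 532) against 69.4 (59.3 to 80.7), and was in 35.9% of the cells. It was at 36.5 CPM in PG epithelial cells and 29.3 in contractile cells. The receptor it feeds, *Nr3c1*, was at 125 CPM in PG and 172 in skin fibroblasts, and *Tsc22d3* and *Fkbp5*, which glucocorticoids induce, were at 104 and 38.7 CPM against 144 and 62.8. The estrogen receptor *Esr1* was 2.31-fold lower at 27.2 CPM.

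Of 14 retinoid genes, 5 (35.7%) were higher and 1 (7.14%) lower, or 4 and 1 without epithelial-gene cells, against 12.4% and 11.4% of all genes. *Crabp1*, a binding protein for retinoic acid, was 10.3-fold higher at 199 against 19.3 CPM and lay in 12.7% of PG fibroblasts. *Aldh1a2*, which makes retinoic acid, was at 37.8 CPM against 1.23, where skin held 3 UMIs, and *Cyp26b1*, which degrades it, was at 7.91 against 38.2. *Aldh1a1* and *Aldh1a3*, other enzymes of synthesis, were within 2-fold. *Fabp4*, a fatty acid binding protein of fat cells and capillaries, was at 227 against 38.6 CPM, with 248 CPM in free RNA and 1630 in contractile cells.

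Markers of fibroblast subtypes summed to 4850 against 6440 CPM for the adventitial list and 5610 against 2930 for the parenchymal list. Of 9 adventitial genes none was higher, 7 were within 2-fold and 2 (22.2%, against 11.4% of all genes) were lower: *Pi16*, a marker of the fibroblasts around vessels and in fascia, at 813 CPM (761 to 867) against 1810, and the dipeptidase *Dpp4* at 80.8 against 338. The stem cell antigen *Ly6a* was the exception in direction, at 2100 against 1360 CPM. Of 8 parenchymal genes 5 (62.5%, against 12.4%) were higher and 2 (25%, against 11.4%) lower, with a median of 1.09 on the log2 scale. These were *Hsd11b1*, *Sparcl1* and *Cxcl12*, given above, with *Inmt*, a methyltransferase, at 629 against 198 CPM and *Apod*, a lipocalin that binds lipids, at 2480 against 1120, while *Smoc2* and *Gas6* were lower. Among cells with 1000 genes and 2000 UMIs the log2 ratios of *Inmt* and *Apod* were 0.66 and 0.92, in place of 1.67 and 1.14. For the adventitial *Pi16*, *Dpp4* and *Cd34* they were -2.26, -3.21 and -1.64, in place of -1.16, -2.06 and -0.84. Without epithelial-gene cells the log2 ratio of *Apod* was 1.19. Both lists were written with earlier results of these data known.

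Further lists held immune, growth arrest and lipid genes, to be read against 12.4% higher and 11.4% lower over all genes. Of 9 antigen presentation genes, 2 (22.2%) were higher and none lower, and 3 were higher without epithelial-gene cells. The 2 genes were *B2m* at 1940 against 878 CPM and *H2-K1* at 1440 against 626. Of 10 interferon genes only *Ifi27l2a* passed 2-fold, being lower at 649 against 1530. Of 8 genes of growth arrest none was higher and 3 (37.5%) were lower, with *Cdkn2a*, which encodes the p16 and p19 inhibitors, at 0 UMIs against 23.8 CPM in skin, at least 9.03-fold lower. *Cdkn1b* and *Cdkn1c* were at 37.8 against 96.9 CPM and 94.0 against 211. Among 12 adipogenic genes 6 (50%) were higher, or 5 without epithelial-gene cells, and *Apoe* and *Plin2* of these were higher still in PG epithelial cells, at 7490 and 497 CPM. All 8 sebocyte markers measured were higher, and 5 of 7 without epithelial-gene cells. They summed to 5100 CPM in PG fibroblasts, 2130 without the cells with epithelial genes, 1140 in skin fibroblasts and 14700 in PG epithelial cells. Their most abundant gene, *Dbi*, was at 10100 CPM in free RNA, and the part of free RNA in these levels was not tested.

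Ranking by ratio gave the ends of the comparison among 2788 genes that reached 50 CPM and 10% of the cells in 1 of the groups. The 15 highest in PG fibroblasts were *Lcn2*, *Gstp1*, *Isl1*, *CAAA01147332.1*, *Spon1*, *Des*, *Crabp1*, *Sparcl1*, *Ass1*, *Tmem176b*, *Hsd11b1*, *H2-Q6*, *F2r*, *Hmgn2* and *Ccl19*. All 15 were still at least 2-fold higher without the cells with epithelial genes, and 9 were at least 2-fold higher in PG than in skin epithelial cells as well. *Gstp1*, a glutathione transferase with close copies, was one of these, at log2 5.96 in fibroblasts and 5.93 in epithelial cells. *Des*, the intermediate filament desmin of muscle and pericytes, was at 77.3 against 7.39 CPM, in 11.9% of PG fibroblasts and 644 CPM in contractile cells. *F2r*, the thrombin receptor, was at 112 against 17.2 CPM.

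At the other end stood *En1*, *Gm26771*, *Gm12840*, *Zic1*, *Myoc*, *Angptl1*, *Hmcn2*, *Malat1*, *Aspn*, *Chrdl1*, *Smpd3*, *Mef2c*, *Ccn5*, *Rnd3* and *Prkg2*. All 15 were still at least 2-fold lower without the cells with epithelial genes, *Zic1* by its bound of 20.3-fold. Of these, 11 were also at least 2-fold lower in PG than in skin epithelial cells. *Myoc*, the secreted protein myocilin, was at 29.9 CPM (20.7 to 41.8) against 624, and *Angptl1*, an angiopoietin-like protein, at 7.91 against 138. *Smpd3*, the neutral sphingomyelinase of bone and cartilage matrix, was at 94.0 against 651 CPM. *Malat1*, a nuclear RNA, was at 3810 against 31400 CPM and 4.04 lower on the log2 scale in PG than in skin epithelial cells, so the gap was shared by both cell classes.

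Within the PG library, the fibroblasts were compared with 47 contractile cells, which leaves library differences aside. The rule itself used contractile genes, so this contrast is a description. Of 9328 genes measured, 12.3% were higher in fibroblasts and 22.1% lower, with a median of -0.24 on the log2 scale. The most extreme genes on the fibroblast side were *Ccl2*, *C3*, *Serpinf1*, *Clec3b*, *Apod*, *Mfap5*, *Tnxb*, *Dpt*, *Igf1* and *Sfrp2*. Their log2 ratios ran from 5.47 for *Sfrp2* to 7.07 for *Ccl2*. Among cells with 1000 genes and 2000 UMIs they ran from 1.85 for *Igf1* to 5.18 for *C3*, with *Ccl2* at 2.11. *Serpinf1*, an inhibitor of vessel growth, was at 1140 CPM against 9.76 from 1 UMI, and *C3* was at least 121-fold higher, with no UMI in contractile cells. *Clec3b* stood at 3040 CPM against 29.3. *Mfap5* of microfibrils, *Tnxb*, a tenascin, and *Dpt*, dermatopontin of collagen fibrils, were at 1180, 544 and 1080 CPM in fibroblasts and at 19.5 or less in contractile cells.

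On the contractile side were *Higd1b*, *Sncg*, *Pcp4l1*, *Gja4*, *Lmod1*, *Ednrb*, *Gm13889*, *Mrvi1*, *Rgs16* and *Kcnk3*. *Higd1b*, which marks pericytes, was at 0.879 CPM in fibroblasts, from 1 UMI, and at 293 in contractile cells. *Ednrb*, an endothelin receptor, was at 2.64 against 293 CPM. Of the 18 independent fibroblast genes 16 (88.9%, against 12.3% of all genes) were higher in fibroblasts than in contractile cells, with a median log2 ratio of 3.30. All 9 pericyte genes were lower, against 22.1% of all genes, a share that depends on the setting of 3 UMIs. *Sparcl1*, *Igfbp7* and *Timp3*, abundant in PG fibroblasts, were more abundant in contractile cells, at 2590, 2640 and 2290 CPM. The contractile cells held only 102495 UMIs, of which 36.5% were estimated to be free RNA from keratinocyte and sebocyte markers. The estimate was 11.7% for the fibroblasts with fewer than 3 epithelial genes. Contractile cells were not filtered in this way, so these shares cannot be compared. With free RNA subtracted, 523 genes were counted as higher and 4063 as lower, in place of 1150 and 2058. Counts below 3 UMIs were set to 3 here, so these numbers depend on that setting too. When 50 UMIs were asked for in the groups together the balance was the other way, with 721 higher and 252 lower.

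To describe how PG fibroblasts vary among themselves, the 638 cells were clustered on their own, which gave 9 subclusters, set out in the plot of gene levels by subcluster. The genes that define them are a description, since they formed the clusters. Subcluster 1 was the largest with 142 cells and was led by *Pi16* at 2720 CPM against 382 in the other members. *Fn1*, fibronectin, *Anxa3*, and the decoy receptor *Il1r2* followed at 3200, 749 and 831 CPM. Its adventitial genes summed to 13000 CPM, against 1390 to 6550 CPM in the others. Over all members 245 cells held *Pi16* and 77 held *Dpp4*, and 66 of the 77 held both.

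Subcluster 2, with 92 cells, was led by a set of chemokine and cytokine genes, and held 40.7% of the UMIs of the whole chemokine and cytokine list. *Ccl2*, *Cxcl1* and *Ccl7* stood at 7760, 7660 and 7110 CPM, and 64.1%, 72.5% and 73.4% of their UMIs over all members lay here. *Il6* and *Cxcl2* were still more restricted, with 89.9% and 91.2% of their UMIs in this subcluster. *Ptx3*, a pentraxin, *Tnfaip6*, which modifies hyaluronan, and *Has1*, which makes it, were at 1660, 2360 and 1150 CPM. Its immediate early genes summed to 19200 CPM against 12700 over all members. *Saa3*, *Saa2* and *Hp* had no UMI in it.

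Subclusters 5 and 6, with 86 and 53 cells, had the highest levels of *Saa3*, *Serpina3n*, *Cp*, *Steap4* and *Hsd11b1*. *Saa3* stood at 4460 CPM in subcluster 6 against 228 in the other members, with *Spp1*, osteopontin, at 1210, *Timp1* at 2770 and *Mgp* at 14600 CPM. Type I collagen was also highest there, with *Col1a1* at 5650 CPM, against 5690 in skin fibroblasts. Subcluster 5 was led by *Fgf10* at 325 CPM and *Rspo3*, an R-spondin, at 558. The haemoglobin genes *Hbb-bs* and *Hba-a1* came next at 325 and 200 CPM, and 80.5% of red cell marker UMIs lay here. *Crabp1* at 1020 and *Enpp2*, autotaxin, at 1010 followed. *Cxcl14* was at 5310 and 4200 CPM in subclusters 5 and 6 and at 23.9 in subcluster 1. Complement genes summed to 16600 and 19100 CPM and parenchymal genes to 14300 and 13900, while the other subclusters ran up to 13200 CPM for complement and 9350 for parenchymal genes, both in subcluster 4. Of 51 cells with *Saa3* only 10 held *Pi16*, while 20 held *Timp1*. *Col4a1* was at 1120 and 960 CPM in them, but reached 2080 in subcluster 8. Subcluster 6 also had the highest sums of pericyte, endothelial and contractile markers, at 1300, 546 and 320 CPM, with 65.5% of the *Acta2* UMIs and 73.9% of those of *Aqp1*, a water channel of vessels and other cells. The part of such cells in its profile was not tested.

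Subcluster 4, with 88 cells, was led by *Sfrp5* and the pericyte gene *Rgs5*, with 100% and 95.5% of their UMIs, but few cells held either, 0.313% and 0.47% of all members. It also held 77.8% of the UMIs of the endothelial gene *Cdh5*. Lower in its ranking were *Gas6*, a ligand of TAM receptors, at 587 CPM, and *Ctla2a*, a protease inhibitor, at 957. It shared *Lgr5*, a receptor for R-spondins, with subcluster 7, at 319 and 871 CPM. Subclusters 7 and 8, with 42 and 36 cells, were led by stress and immediate early genes, which summed to 59300 and 47800 CPM. In subcluster 7 these were *Nr4a1* at 3640 and *Btg2* at 2940, together with *Ptgds* and *Egfl6* at 658 and 580, and *Dcn* reached 38000 CPM. In subcluster 8 they were the heat shock genes *Hspb1*, *Hspa1b* and *Hspa1a* at 11600, 6330 and 4540 CPM, with *Ccl2* at 5120.

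In subclusters 3 and 9 the leading genes went against the label. Subcluster 3 held 88 cells, 79 of them with 3 or more epithelial genes, had a median of 3694 UMIs and supplied 29.6% of all member UMIs. It was led by *Ly6d*, *Lgals7*, *Krt17* and *Krt14*, its fibroblast markers had a median sum of 77.7 per 10000, and its sebocyte genes summed to 13200 CPM. Subcluster 9 had 11 cells led by *Cd74* at 3510 CPM, *H2-Aa* and *Cd52*, and its immune markers summed to 8290 CPM against 221 over all members. Hox genes summed to between 207 and 484 CPM in subclusters 1 to 8 and to 45.0 in subcluster 9. A lower resolution of the clustering, chosen after the data were seen, gave 4 or 8 subclusters.

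**Figure D5:**
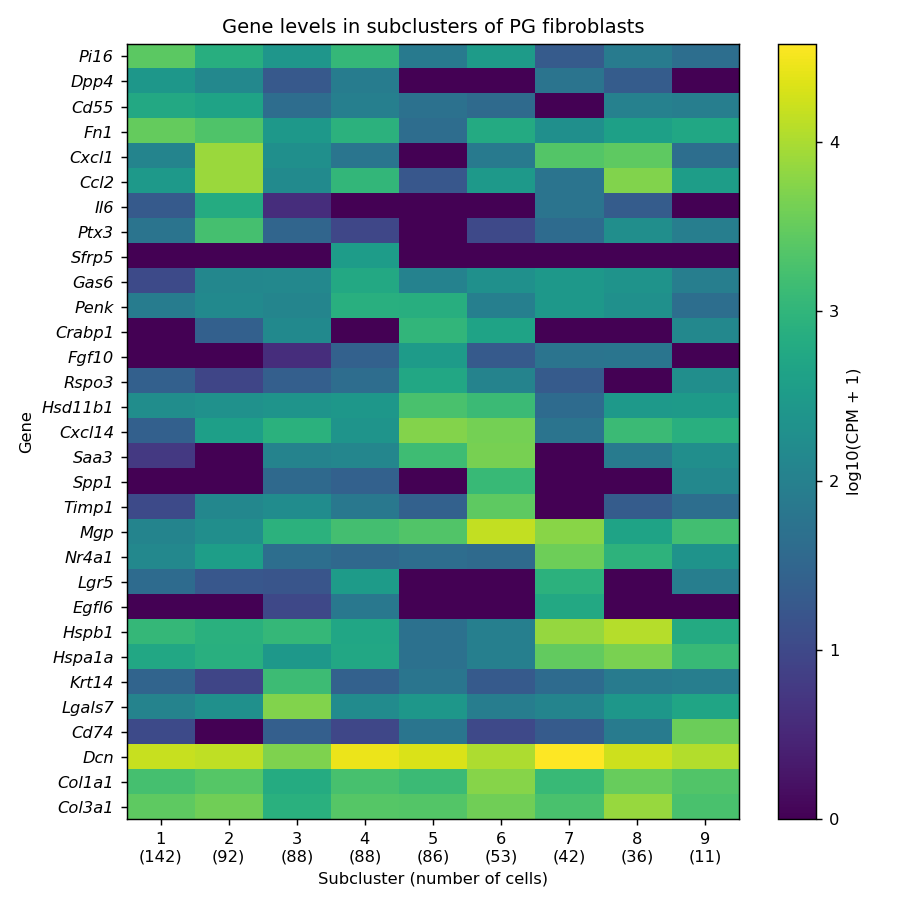
Level of 31 genes in the 9 subclusters of PG fibroblasts, as log10(CPM + 1) with the number of cells under each column. *Pi16* is highest in subcluster 1, *Ccl2* and *Cxcl1* in subcluster 2, *Saa3* and *Timp1* in subcluster 6 and *Krt14* in subcluster 3. *Dcn*, a gene of the rule, runs from 5000 CPM in subcluster 3 to 38000 in subcluster 7.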

How the data were processed

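Single cells of 2 pooled libraries, 1 of preputial gland and 1 of back skin, were profiled with droplet-based 3′ chemistry. The authors deposited matrices of UMI counts per gene and barcode, made with Cell Ranger 4 on mm10 per the labels, and no sample column was left unmapped. Cell filters, the marker rule and the CPM scale are as given with the results. Ratios had exact conditional binomial intervals, levels Poisson and shares Clopper-Pearson intervals, and a group with no UMI was set to 3 UMIs for a bound. A symbol with several gene identifiers took the one with most UMIs. Named genes were the rule genes, the 15 most abundant, the 15 highest and 15 lowest over skin (at least 50 CPM and 10% of cells, leaving out rule, mitochondrial, ribosomal, haemoglobin and sex genes and genes more abundant in free RNA), the 10 highest and 10 lowest over contractile cells, and members of gene lists. *Saa2*, *Saa3*, *Hp*, *Serpina3n*, *Cp*, *Steap4*, *Spp1* and leading genes of subclusters were named after their values were seen. Members and lists were chosen with earlier results of these data known. Clustering used 1500 genes, 15 components, 15 neighbours and a resolution of 1.0 in scanpy 1.11.5, with numpy 2.4.6, scipy 1.17.1, pandas 2.3.3 and Python 3.11.15. On simulated counts for PG against skin fibroblasts over 11486 genes, 96.1% of intervals held the true ratio, and 5.81% of unchanged genes passed 2-fold. These counts were drawn from the Poisson model that the intervals assume, so they do not cover genes whose UMIs lie in few cells. Gene coordinates came from GENCODE on GRCm38, and promoters from RefSeq. A few genes are not reported here.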

Additional observations from a re-analysis of the deposited data

Results flagged for a closer look

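These genes had a ratio of PG over skin of opposite sign in fibroblasts and in epithelial cells, with 1 library per tissue, and the difference was not tested. *Spon1* was 3.47 higher on the log2 scale in PG fibroblasts and -2.89 in epithelial cells, *Des* 3.39 and -3.44, and *Crabp1* 3.37 and -1.05. *H2-Q6* was at 2.72 and -0.37 and *F2r* at 2.71 and -0.98. *Hmcn2*, a matrix protein of the hemicentin family, ran the other way, at -3.58 in fibroblasts and 3.32 in epithelial cells.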

How the results depend on the processing

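The main values were 638 cells, 13.6% of PG cells, with 1456 genes higher and 1348 lower than in skin. Against contractile cells 1150 were counted as higher and 2058 as lower, which depends on the setting of 3 UMIs for no UMI. When each cell needed 1000 genes and 2000 UMIs, 118 fibroblasts (4.14%) were left, the contractile comparison gave 736 higher and 1144 lower, and the ratios of *Ccl2* and *Ccl7* over skin reversed to -1.43 and -0.51. Subcluster 3 had a median of 3694 UMIs and subcluster 2 of 1270, so a limit of 2000 UMIs keeps a larger share of subcluster 3. Of the 88 cells of subcluster 3, 79 held 3 or more epithelial genes. The part of this change of cells in the reversal was not tested. With at least 200 genes and 500 UMIs there were 1033 fibroblasts (17.2%). The share was 15.1% with at most 5% mitochondrial UMIs, 12.0% with a marker sum of at least 100 per 10000, and 11.9% without cells with 3 or more epithelial genes. Asking for 50 UMIs in the groups together left 578 higher and 616 lower against skin and 721 and 252 against contractile cells. Fewer genes were then counted, and genes with few UMIs in fibroblasts and none in contractile cells dropped out. Free RNA subtraction gave 523 higher and 4063 lower against contractile cells, with counts below 3 UMIs set to 3. Of 1082 pairs of a named ratio and an alternative, 951 stayed within the counting interval, 129 moved past it and 2 reversed from a 2-fold call, and 58 of the 129 belonged to the limit of 1000 genes and 2000 UMIs. At that limit 38 of 81 ratios over skin shifted by over 1.5-fold. Counting ratios under 2-fold too, the sign changed in 4 pairs, all at that limit, the others being *Cxcl1* (0.73 to -2.18) and *Bmp4* (0.78 to -1.02). *Hoxc9* went from 1.03 to 0.95 with at least 200 genes and 500 UMIs, 0.98 at 20% mitochondrial UMIs and 0.99 with free RNA subtracted, and *Igfbp7* from 1.04 to 0.97 with free RNA subtracted and 0.96 as a mean over cells. The causes of these shifts were not tested. No paired analysis was possible because each tissue had 1 library. Depth limits genes with few UMIs, such as the Hox and Hedgehog genes.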
